A study of Mus musculus with 7 samples.

Results

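Myeloid cells arise from stem cells under a small set of transcription factors and growth factor receptors, and 9 of 10 listed genes of that set were examined here in haematopoietic stem cells (HSCs) after induced deletion of Mettl3. The list held 6 transcription factors (Spi1, Cebpa, Cebpb, Cebpd, Cebpe and Gfi1) and 4 receptor genes for colony-stimulating factors (Csf1r, Csf2ra, Csf2rb and Csf3r), and members were taken as the rows of the deposited table that carry these names. Of 23038 genes in the table, 8 matched by symbol and Spi1 was found under its older symbol Sfpi1 by NCBI Gene identifier 20375. Cebpa is not analysed here. Of the 9 genes found, 8 had reads in at least 1 group, and no filter on low values was applied.

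HSCs had been sorted from the bone marrow of adult C57BL/6 mice by the markers lineage- Sca1+ cKit+ CD150+ CD48-. Libraries were made with Smart-seq2, a full-length cDNA method for small inputs, from 150 cells each. There were 3 libraries of Cre-negative littermates (controls) and 4 of Mx1-cre; Mettl3fl/fl mice (mutants), described in the series' design text as different biological replicates. All animals, controls included, had received 5 injections of 10 µg pIpC, and cells were collected 10 days after the last. pIpC is a double-stranded RNA analogue that raises interferon, and interferon switches on the Mx1 promoter that drives Cre. Recombination by this promoter is not limited to HSCs. The sources used here do not give the Mettl3 alleles of the controls. Mettl3 encodes the catalytic subunit of the enzyme that writes N6-methyladenosine on mRNA.

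PU.1, the product of Spi1, and the C/EBP proteins bind together at many myeloid promoters and enhancers, among them those of the receptor genes for the colony-stimulating factors. GFI1 is a repressor that favours granulocytes over monocytes and restrains cycling of HSCs. M-CSF signals through CSF1R to support macrophages, and G-CSF through CSF3R to support neutrophils. GM-CSF binds an alpha chain encoded by Csf2ra, which pairs with the common beta chain encoded by Csf2rb. In the stem cell compartment low levels of these genes are known as myeloid priming.

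The table gives 1 RPKM value (reads divided by gene model length in kilobases and by library size) per gene and group, so no spread between animals can be computed, no difference below has a replicate check, and no p-value is given. Differences are log2((mutant + 1) / (control + 1)), a scale with a pseudocount of 1 RPKM that understates the change of low genes, and 2-fold on this scale was used as a rule of size. Library sizes read from the steps of low values were 19.6 to 31.1 megareads in controls and 25.7 to 37.7 megareads in mutants. Mettl3 itself was at 49.8 in controls and 9.60 RPKM in mutants. All 7 markers listed for HSCs had reads in both groups, and their summed level was 336 in controls and 308 RPKM in mutants. Ly6a made the largest part of that sum, at 152 and 167 RPKM. The markers did not move together. Slamf1, Mecom and Ly6a were higher in the mutant value, and Procr, Hlf, Fgd5 and Kit were lower. Hlf was at 19.3 in controls and 11.9 RPKM in mutants, and Kit at 67.4 and 39.9 RPKM.

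Among the 8 members with reads, 7 were higher and 1 was lower in the mutant value, and 2 were at least 2-fold higher (Cebpb and Cebpd). None was at least 2-fold lower. Of the 7, Cebpe, had reads in a single mutant library. At 1.5-fold Csf3r joined them and none was lower, beside 13% of all genes higher and 10.4% lower by that size. Over all 14539 genes with reads, 3.67% were at least 2-fold higher, 3.47% at least 2-fold lower, and 52.6% higher by any amount. The median log2 difference of the 8 members was 0.42, beside 0.02 for all genes with reads. It was 0.54 for the 5 factors and 0.26 for the 3 receptor genes. With so few genes these shares and medians describe the list and set it apart from no other.

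**Figure D1:**
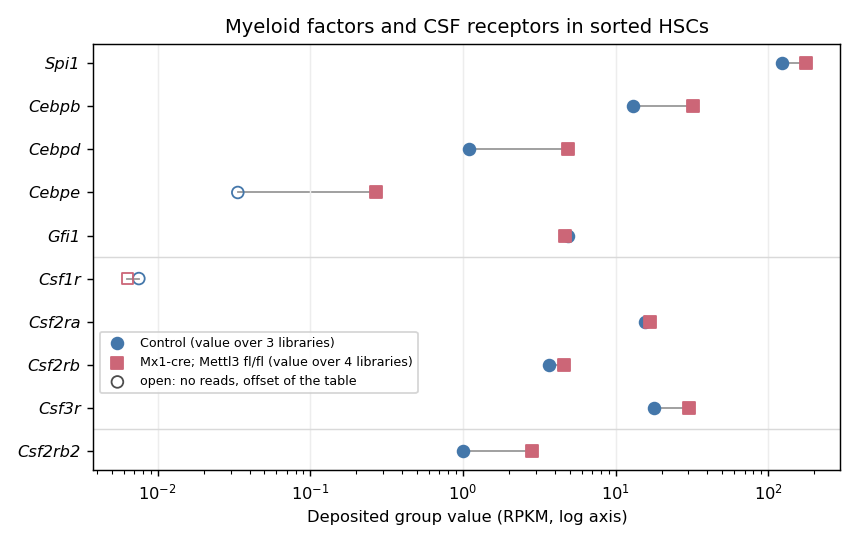
Deposited RPKM of the 9 genes and of Csf2rb2 on a log axis, with circles for controls and squares for mutants; open symbols mark groups without reads, drawn at the small offset of the table. The widest gaps among genes with reads in both groups are those of Cebpd and Csf2rb2, and Csf1r has no reads in either group.

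Promoter windows of Cebpb, Csf3r, Csf2ra and Gfi1 are shown because these 4 of the 9 genes found have an entry in RefSeq's promoter table (GRCm38.p6). Each runs 5′ to 3′ on the gene's strand, from 250 bases before a transcript start through the first 50 bases from that start. The start used for Cebpb and Gfi1 is the 5′ end of the gene as RefSeq annotates it. The start used for Csf2ra lies 43 bases inside the annotated gene, and that for Csf3r lies 1218 bases inside it, so the whole Csf3r window is within the gene's annotated span. Gfi1 has a further start 1462 bases inside the gene, whose window is not printed. Capitals mark matches on either strand to GAGGAA (an ETS core of the PU.1 type), TTGCNNAA (the C/EBP palindrome), TGACG (the core of a cyclic AMP response element) and TATAAA (the box bound by TBP).
Cebpb, chr2:167688665-167688964, plus strand: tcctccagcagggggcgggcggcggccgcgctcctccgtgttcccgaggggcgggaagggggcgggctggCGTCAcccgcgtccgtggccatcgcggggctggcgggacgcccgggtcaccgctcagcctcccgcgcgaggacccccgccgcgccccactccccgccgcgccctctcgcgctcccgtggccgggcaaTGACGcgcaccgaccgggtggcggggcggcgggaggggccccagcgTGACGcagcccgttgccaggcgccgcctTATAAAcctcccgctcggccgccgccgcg
Csf3r, chr4:126024409-126024708, plus strand: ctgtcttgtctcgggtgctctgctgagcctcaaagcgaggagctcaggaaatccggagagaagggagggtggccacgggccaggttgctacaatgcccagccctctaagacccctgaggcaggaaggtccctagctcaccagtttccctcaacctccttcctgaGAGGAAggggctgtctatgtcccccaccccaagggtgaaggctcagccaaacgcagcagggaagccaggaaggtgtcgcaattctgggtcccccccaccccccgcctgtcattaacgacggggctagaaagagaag
Csf2ra, chr19:61228369-61228668, minus strand: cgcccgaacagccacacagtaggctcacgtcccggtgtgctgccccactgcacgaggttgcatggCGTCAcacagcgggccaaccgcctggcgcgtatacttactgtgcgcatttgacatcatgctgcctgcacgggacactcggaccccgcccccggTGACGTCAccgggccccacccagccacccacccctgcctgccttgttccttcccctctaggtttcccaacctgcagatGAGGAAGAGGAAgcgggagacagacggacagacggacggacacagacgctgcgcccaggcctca
Gfi1, chr5:107725756-107726055, minus strand: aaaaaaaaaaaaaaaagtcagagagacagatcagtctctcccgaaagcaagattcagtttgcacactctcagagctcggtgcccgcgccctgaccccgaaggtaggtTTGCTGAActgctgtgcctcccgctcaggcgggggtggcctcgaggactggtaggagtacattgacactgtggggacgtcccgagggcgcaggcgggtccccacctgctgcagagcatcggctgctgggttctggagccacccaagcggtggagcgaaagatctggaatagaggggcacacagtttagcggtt
Positions are counted from 0 at the transcript start each window uses. The Cebpb window held TGACG at -53 to -49 and at -7 to -3, its reverse complement at -180 to -176, and TATAAA at 21 to 26. The Csf3r window held 1 GAGGAA, at -86 to -81. The Csf2ra window held 2 adjoining copies of GAGGAA, at -14 to -9 and -8 to -3, and 2 overlapping TGACG matches on opposite strands at -92 to -88 and -89 to -85, which together spell the full element TGACGTCA. A further reverse match lay at -185 to -181. The Gfi1 window held 1 match to TTGCNNAA, TTGCTGAA at -143 to -136, and no other match. The printed windows of Cebpb, Csf3r and Csf2ra held no TTGCNNAA, and the further Gfi1 window held none of the 4 motifs. Among all 32851 promoters of this length in the table, GAGGAA occurred in 28.3%, TGACG in 20.8%, TATAAA in 13.6% and TTGCNNAA in 10.8%. The matches are descriptions of these letters, and no binding was measured.

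Spi1, which encodes the ETS factor PU.1 (chromosome 2, 91082374 to 91115759, GRCm38.p6, 5 exons in the longest coding transcript of GENCODE M21), had the highest level of all members in both groups. It was at 122 in controls and 178 RPKM in mutants. The mutant value was 1.46-fold that of the controls, a log2 difference of 0.54, below the 2-fold rule. Spi1 lay above 92.9% of the genes with reads in controls and above 95.9% in mutants. Of the 1280 genes with a mean level of at least 100 RPKM, 5.86% were higher in the mutant value by as much or more, and 1.17% were at least 2-fold higher. Both groups of sorted HSCs thus carried Spi1 RNA among their more abundant transcripts, and the larger value was that of the mutants.

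Cebpb encodes C/EBP beta, the member of the family known for raising granulocyte output in emergencies such as infection or cytokine treatment. The gene has a single exon (chromosome 2, 167688915 to 167690432). It was at 13.0 in controls and 32.0 RPKM in mutants, 2.45-fold higher and a log2 difference of 1.23. Among the 4917 genes with a mean level of 10 to 100 RPKM, 1.40% were higher by as much or more. By level, Cebpb came after Spi1, Csf3r and Csf2ra in controls and directly after Spi1 in mutants.

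Cebpd, another single-exon gene (chromosome 16, 15887286 to 15889545), encodes C/EBP delta, which is induced by inflammatory cytokines. It was at 1.09 in controls and 4.90 RPKM in mutants. That is 4.48-fold higher by the ratio of the deposited values and 1.49 on the log2 scale with the pseudocount, the largest difference of the members on that scale. Among the 4902 genes with a mean level of 1 to 10 RPKM, 1.98% were higher by as much or more, and 5.94% were at least 2-fold higher. For no gene length from 200 to 10000 bases did either Cebpd value equal whole reads of a single library, so reads of at least 2 libraries entered each. Of the 9801 lengths tried, 4 fitted a single library for the mutant value of Cebpb and none for its control value. For Spi1, 5 fitted in controls and 23 in mutants. The gene model lengths of Cebpb and Spi1 were not read from the table, so this check does not settle them. How evenly the libraries contributed cannot be read from the table.

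Cebpe encodes C/EBP epsilon, needed for the late steps of neutrophil and eosinophil maturation (chromosome 14, 54710363 to 54712174). Controls had no reads. Its deposited control value of 0.0335 RPKM is the offset of the table, and a count of 0 allows up to 3 reads over the group, or 0.0323 RPKM, a limit for counting error alone. In mutants the value was 0.269 RPKM, and it equalled 32 reads of a single library on a gene model of 1238 bases, with no reads in the other 3. In that library alone the level would be 0.962 RPKM. The log2 difference of 0.30 therefore stands on 1 mutant library, and no fold is given.

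The related gene Cebpg, which encodes C/EBP gamma, a family member that can pair with the others and lacks a strong activation domain, was at 5.02 and 8.72 RPKM. The levels of Cebpb, Cebpd, Cebpe and Cebpg summed to 19.2 in controls and 45.9 RPKM in mutants, with Cebpb making up 68.0% and 69.7%. All 4 of these genes were higher in the mutant value, and Cebpb was the most abundant of them in both groups. Cebpa and Ddit3, a further gene of the C/EBP family, are not in this sum. Ddit3 exceeded the sum in controls and was lower in the mutant value, at 70.5 in controls and 40.1 RPKM in mutants. The sum therefore does not stand for the whole family. Per unit of Cebpb, Spi1 was 9.37-fold as abundant in controls and 5.57-fold in mutants.

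Gfi1, the repressor (chromosome 5, 107716655 to 107725805, 6 exons), was the only member with reads that was lower in the mutant value. It was at 4.87 in controls and 4.64 RPKM in mutants, a log2 difference of -0.06. At its level of 1 to 10 RPKM, 44.8% of genes were lower by as much or more. Its paralog Gfi1b, which acts in the erythroid and megakaryocytic lineages, was 33.9-fold as abundant as Gfi1 in controls and 34.3-fold in mutants, at 165 and 159 RPKM. Neither of the 2 genes was near the 2-fold rule. The ratio of Spi1 to Gfi1 was 25.1 in controls and 38.4 in mutants.

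**Figure D2:**
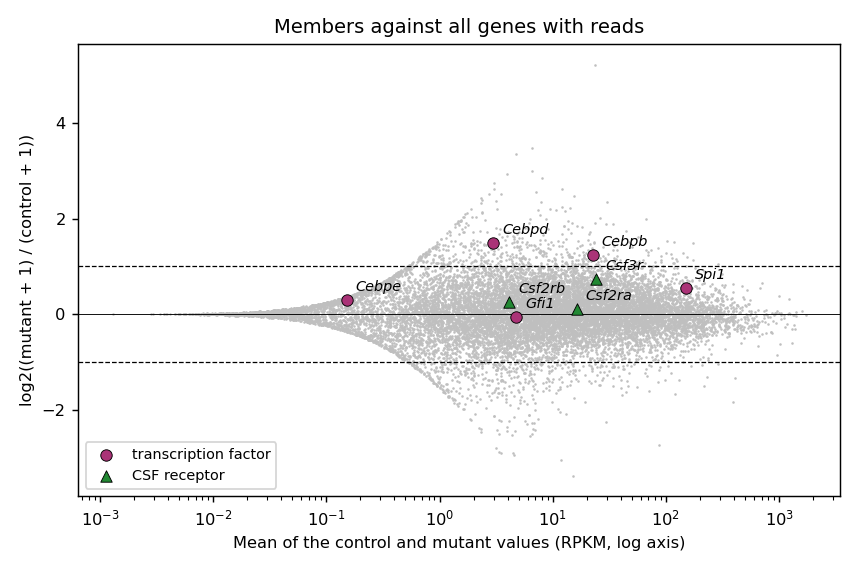
Log2 difference with a pseudocount of 1 RPKM against the mean of both values (log axis) for all 14539 genes with reads in grey and the 8 members with reads in colour; dashed lines mark 2-fold. Cebpd (1.49) and Cebpb (1.23) lie above the upper line, and Gfi1 (-0.06) is the member below 0.

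Csf3r, which encodes the G-CSF receptor (chromosome 4, 126023441 to 126044975, 17 exons), showed the largest difference among the receptor genes. It was at 17.98 in controls and 30.4 RPKM in mutants, 1.69-fold higher and a log2 difference of 0.72, short of 2-fold. Among genes of 10 to 100 RPKM, 8.62% were higher by as much or more. It was the most abundant of the receptor genes in both groups.

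Csf2ra, the alpha chain of the GM-CSF receptor (chromosome 19, 61217191 to 61228461, 12 exons), was at 15.7 in controls and 16.9 RPKM in mutants, a log2 difference of 0.10. Of the genes at its level, 45.5% were higher by as much or more. In controls Csf3r and Csf2ra were close, with a ratio of 1.15, and in mutants the ratio was 1.80.

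Csf2rb, the signalling beta chain shared by the receptors for GM-CSF, IL-3 and IL-5 (chromosome 15, 78325800 to 78351001, 15 exons), was at 3.66 in controls and 4.57 RPKM in mutants, a log2 difference of 0.26. Alpha chain RNA exceeded beta chain RNA per length by 4.29-fold in controls and 3.69-fold in mutants. Mice carry a neighbouring copy of the gene, Csf2rb2, whose product serves the IL-3 receptor alone. The coding sequences of the 2 genes (2688 and 2634 bases in their longest GENCODE M21 coding transcripts) were identical at 95.2% of 2628 aligned bases. The sources used here do not say how reads that match both genes were assigned, so the division between them is uncertain. Csf2rb2 was at 1.00 in controls and 2.86 RPKM in mutants, a log2 difference of 0.94. The ratio of Csf2rb to Csf2rb2 was 3.64 in controls and 1.60 in mutants. Added together, Csf2rb and Csf2rb2 came to 4.66 RPKM for controls and 7.43 RPKM for mutants. Apart from gene length, this total is free of the division only if each shared read was kept and given to a single gene. Whether that was so is unknown, so the total is uncertain too.

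Csf1r, the M-CSF receptor gene and a classical PU.1 target of the monocyte lineage, had no reads in any of the 7 libraries. Both of its deposited values are the offset of the table, for a gene model of 5510 bases. A count of 0 allows up to 3 reads over a group, which is 0.00726 in controls and 0.00463 RPKM in mutants. RNA of Csf1r was therefore not detectable at this depth, beside 122 and 178 RPKM for Spi1.

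In order of level, the members of the control group ran Spi1, Csf3r, Csf2ra, Cebpb, Gfi1, Csf2rb and Cebpd, from 122 down to 1.09 RPKM, with Cebpe and Csf1r without reads. In mutants the order was Spi1, Cebpb, Csf3r, Csf2ra, Cebpd, Gfi1 and Csf2rb, from 178 down to 4.57 RPKM, then Cebpe, with Csf1r without reads. Cebpb moved past both Csf3r and Csf2ra. Cebpd moved past Gfi1 and Csf2rb, although these 3 lay between 4.57 and 4.90 RPKM in mutants. Whether neighbours in either order differ beyond the spread between animals cannot be told from group values.

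Ligands and partner receptors were read next. Of 19 listed genes, 13 had reads, 8 of these were higher and 5 lower, and the median log2 difference was 0.33. None of the 13 was 2-fold apart on the scale with the pseudocount, beside 3.67% of all genes with reads higher and 3.47% lower. By the ratio of the deposited values, Csf2rb2 was 2.85-fold higher, Il1r1 2.70-fold lower and Flt3 2.07-fold lower. Lifr had no reads in controls. No reads of the ligand genes Csf2, Csf3, Il34, Il3 and Il5 were found in either group. Csf1, which encodes M-CSF, was at 1.16 and 0.893 RPKM. The gene for the IL-3 receptor alpha chain, Il3ra, was at 11.7 and 12.5 RPKM, and Il5ra had no reads. The receptor genes with the highest differences were Csf2rb2 and Ifngr2, a chain of the interferon gamma receptor, at 22.2 in controls and 40.6 RPKM in mutants. Those with the lowest were Flt3, at 9.76 and 4.71 RPKM (log2 difference -0.92), and the stem cell factor receptor gene Kit, whose protein was part of the sorting gate, at 67.4 and 39.9 RPKM (log2 difference -0.74).

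Of 27 signalling genes below the receptors, 26 had reads, 16 were higher and 10 lower, with a median of 0.10. Past 2-fold upward were 2 (7.69%, beside 3.67% of all genes with reads), and none was past it downward (beside 3.47%). The 2 were Fgr, a Src family kinase of myeloid cells, at 0.628 and 3.68 RPKM, and Cbl, an adaptor that directs activated receptors to degradation, at 0.567 and 3.20 RPKM. Stat3, the main STAT below the G-CSF receptor, was at 39.1 and 55.0 RPKM. Stat5a and Stat5b, which act below the GM-CSF receptor, were at 14.9 and 13.35 RPKM (Stat5a) and 6.33 and 5.60 RPKM (Stat5b). The lowest differences were those of the adaptor genes Gab2, at 2.96 and 1.44 RPKM, and Shc1, at 27.6 and 17.3 RPKM. Socs3, the feedback inhibitor of the G-CSF receptor, was at 5.74 and 6.56 RPKM, close together.

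Partner and antagonist factors had a median of -0.03, with 12 higher and 16 lower among 28 genes with reads of 30 listed. In each direction 2 of the 28 (7.14%) were at least 2-fold apart, beside 3.67% of all genes with reads higher and 3.47% lower. At least 2-fold higher were Nab2, a corepressor of EGR factors, at 1.92 and 5.94 RPKM, and Zfpm1, the GATA cofactor FOG-1, at 6.73 and 14.5 RPKM, the latter at the edge of the rule with 1.00. At least 2-fold lower were Egr1, an EGR factor known for favouring monocytes, at 120 and 52.6 RPKM, and Jun, a partner of PU.1, at 20.8 and 9.48 RPKM. Of the factors that oppose PU.1 in erythroid and megakaryocytic cells, Gata1 was at 32.4 and 28.6 RPKM and Gata2 at 65.4 and 67.4 RPKM. The ratio of Spi1 to Gata1 was 3.77 in controls and 6.23 in mutants. Irf8, the factor of monocyte and dendritic cell progenitors, was at 0.917 and 2.27 RPKM, and Runx1, which acts upstream of Spi1, was at 8.11 and 7.29 RPKM.

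Known target genes of these factors went both ways. Of 28 listed, 27 were found, 21 had reads, 11 of these were higher and 10 lower, with a median of 0.05. In each direction 3 of the 21 (14.3%) passed 2-fold, beside 3.67% of all genes with reads higher and 3.47% lower. Cd68, which encodes a lysosomal glycoprotein of phagocytes, was at 26.4 in controls and 108 RPKM in mutants, while Plac8 had 90.5 and 255 RPKM. The third of the higher genes was Mpo, the gene of myeloperoxidase, at 0.0492 and 1.43 RPKM. At least 2-fold lower were Camp, the gene of a neutrophil granule peptide, at 6.37 and 0.562 RPKM, S100a9, at 1.99 RPKM in controls and without reads in mutants, and Ms4a3, at 1.85 and 0.0691 RPKM. The control value of Mpo and the mutant value of Ms4a3 are of the order of the offset of the table. That offset is 0.0414 in controls and 0.0349 RPKM in mutants at 1 kb. The integrin genes Itgam and Itgb2, which encode the chains of Mac-1, were at 0.727 and 1.65 RPKM (Itgam) and 30.5 and 44.8 RPKM (Itgb2). Lyz2 was at 406 and 289 RPKM.

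**Figure D3:**
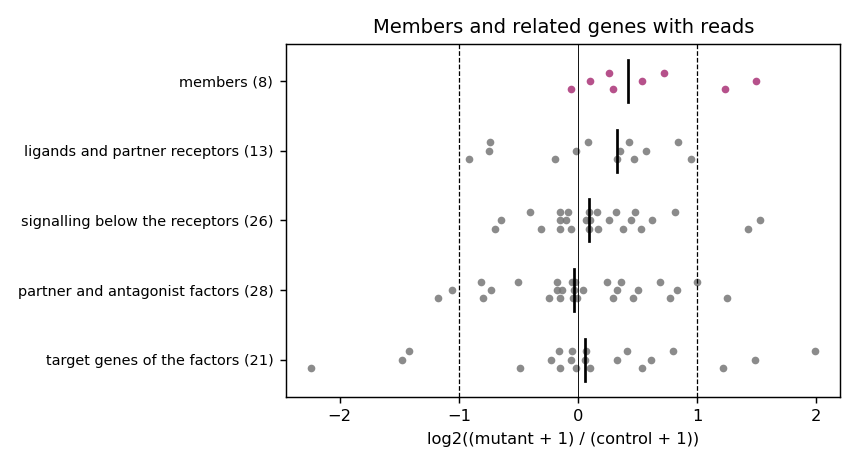
Log2 differences (pseudocount 1 RPKM) of the 8 members with reads and of the genes with reads in 4 related lists, 1 point a gene, with a bar at each median; dashed lines mark 2-fold. The medians are 0.42 for the members and 0.33, 0.10, -0.03 and 0.05 for the lists from top to bottom.

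Several of these factors and receptors are far more abundant in mature myeloid cells than in HSCs, so markers of such cells were read beside them. In bulk libraries fewer cells of a type and less RNA per cell cannot be told apart. Of 8 neutrophil markers, 4 had reads, and their summed level was 14.5 in controls and 6.34 RPKM in mutants. The 4 did not move together. Camp was at 6.37 and 0.562 RPKM, S100a9 at 1.99 RPKM in controls and without reads in mutants, S100a8 at 6.13 and 5.09 RPKM, and Cxcr2, the chemokine receptor of neutrophils, was higher in mutants, at 0.0171 and 0.696 RPKM. Ngp, Ltf, Mmp8 and Retnlg had no reads in either group. Of 9 monocyte and macrophage markers, 6 had reads, and they summed to 2.10 in controls and 3.40 RPKM in mutants. Adgre1, Ccr2 and Cx3cr1 had no reads in either group, like Csf1r. Granulocyte-monocyte progenitor markers summed to 278 in controls and 370 RPKM in mutants, of which Prtn3 alone gave 276 and 368 RPKM. Elane, the neighbouring elastase gene, had no reads in controls and stood at 0.0855 RPKM in mutants, and Ctsg had no reads. The mutant value of Elane and the control value of Cxcr2 are of the order of the offset of the table. Mast cell and basophil markers had reads for Cpa3 alone, at 6.02 and 2.25 RPKM, and dendritic markers for Flt3 alone. The part of these marker levels in the differences of the members was not tested.

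**Figure D4:**
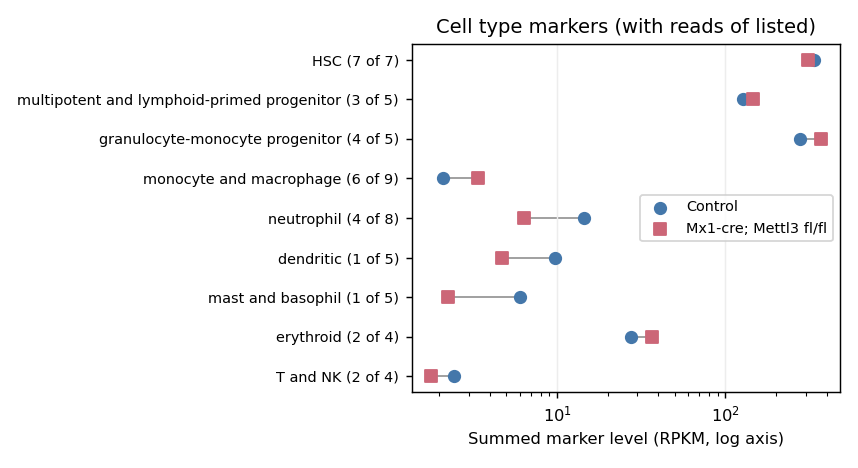
Summed RPKM of the markers with reads for 9 cell types, in controls (circles) and mutants (squares), on a log axis; the numbers in brackets give markers with reads in at least 1 group of those listed. Monocyte and neutrophil markers sum to between 2.10 and 14.5 RPKM, against 336 and 308 RPKM for HSC markers; B cell markers, without reads in controls, are not drawn.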

How the data were processed

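RNA-seq values of 7 libraries (3 control, 4 mutant) were used as RPKM computed and deposited by the authors, with a single value for each gene in each group per the file headers. The genome build was mm10 per the submitters' processing notes, and Picard and edgeR are named without a role. The sources used here do not give the aligner, the annotation or how libraries were averaged. With group values alone, no test could be run.

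In 8499 genes (36.9%) the 2 values stood at a fixed ratio of 0.841, each a constant divided by a whole number of bases (0.0414 and 0.0349 RPKM at 1 kb). They were read as genes without reads, the constant being 1 added read per library. The 3 lowest recurrent steps above it in controls and the 4 in mutants added up to these constants, 0.0414 and 0.0349 RPKM at 1 kb, without being made to. Each step was taken as 1 read of 1 library, which gives the library sizes. At 1 RPKM on 1 kb a library holds 19.6 to 37.7 reads. Of 426 miRNA genes without reads, 365 (85.7%) had a whole number of bases equal to RefSeq's gene length, which bears on the scale of these lengths. Floors cover counting error only.

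Differences were computed in Python 3.11.15 with numpy 2.4.6, pandas 2.3.3 and Biopython 1.88 (alignment). Coordinates are those of RefSeq on GRCm38.p6, which held 22959 of the table's identifiers, and GRCm38 is the assembly that mm10 names. Members and gene lists were chosen with earlier results of these data known, so no pattern here is independent support for those results. Of each related list, the 2 highest and the 2 lowest genes with at least 1 RPKM in a group were named by rule. The other genes named from the related and marker lists were chosen after their values were seen. Azu1 and Cebpa are not analysed here, and 2 further genes of the lists are not reported here. Alternatives were other pseudocounts, scalings, a 1.5-fold rule, a level filter, subtraction of the offset and leaving out single-library genes.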

Additional observations from a re-analysis of the deposited data

How the results depend on the processing

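Of 68 values recomputed under other settings, 61 kept within 1.5 times of the reported one and none that had been 2-fold apart changed sign. The pseudocount was the setting that moved the rest. Without one, the log2 difference of Cebpd was 2.16 and that of Cebpe 3.00, and with 0.1 RPKM Cebpe was at 1.47, because a smaller pseudocount gives low values more weight. Cebpe then joined Cebpb and Cebpd, making 3 members at least 2-fold higher, although its mutant value is from a single library. Over all genes, those at least 2-fold higher numbered 1508 with 0.1 RPKM and 1981 without a pseudocount in place of 534, and those lower 1347 and 1674 in place of 504. With a 1.5-fold rule, 3 members were higher (Cebpb, Cebpd and Csf3r), beside 13% of all genes, and none was lower. The median of the members lay between 0.40 and 0.65 under all settings run. No paired analysis was possible because each group has a single value per gene. For the same reason no replicate could be left out. If a step is 1 read, depth limits Cebpe and Csf1r to the floors given.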

Other observations

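The rows of the table are not in 1 order throughout. The first 365 rows are not sorted by gene identifier, and the remaining 22673 ascend by it. The sources used here do not say what the order of the first rows stands for. None of the 9 members lies among the 365, Cebpb and Cebpd included. Of 1038 genes at least 2-fold apart in either direction, 242 do and 796 do not. Among the 16 genes named by rule from the related lists, 2 do: Cd68 and Plac8.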
